A study of Mus musculus with 6 samples.

Results

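The genes of insulin-like growth factor (IGF) binding proteins and IGF receptors were examined in CD11b+ cells purified from mouse tumors. The 9 members were the genes *Igfbp2*, *Igfbp3*, *Igfbp4*, *Igfbp5*, *Igfbp6*, *Igfbp7*, *Igf1*, *Igf1r* and *Igf2r*, taken by symbol from a count table of 25701 genes. They were chosen by their symbols with the comparison of MCT2 KO with MCT2 CO already known, so the values of that comparison are given for them as a description. MCT2, encoded by *Slc16a7*, is a transporter of lactate, pyruvate and ketone bodies. Both groups were male mice of the conditional MCT2 line on the C57BL/6 background, with loxP sites in both MCT2 alleles and the mCre-Tg transgene. The MCT2 KO mice received 0.18 mg tamoxifen per g body weight once daily in 5 injections from 8 weeks of age, and the MCT2 CO mice received vehicle. All mice were then injected under the skin of the flank with 100000 TC1 cells, a mouse lung epithelial tumor line, 2 days later, and tumors were taken after 24 days. Each group had 3 libraries of poly-A RNA. Cre was active systemically, so the deletion was not limited to CD11b+ cells, and the promoter that drives it is not named in the sources used here. No mice without Cre were given tamoxifen, so the effects of tamoxifen, Cre and the deletion cannot be told apart. The paper also reports larger tumors in MCT2 KO mice. It calls it difficult to separate cell-intrinsic effects on macrophages from those of a greater tumor burden. The part of tumor size in the values given here was not tested. The sample records give the tissue as lung, whereas the study's methods describe flank tumors. The labels do not say that each library came from a separate mouse, so p-values measure the spread between these libraries only.

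IGF1 and IGF2 are secreted growth factors that activate the tyrosine kinase receptor IGF1R. The receptor IGF2R carries no such kinase: it takes up IGF2 for degradation in lysosomes and sorts lysosomal enzymes that bear mannose 6-phosphate. The secreted IGF binding proteins hold IGFs outside the cell, with high affinity for *Igfbp2* to *Igfbp6* products and low affinity for IGFBP7, and they can prolong the life of IGFs or keep them from the receptor. Proteases that cut binding proteins, such as pregnancy-associated plasma protein A, release IGF again. In tumors, IGF1 is known as a product of macrophages and fibroblasts.

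The upstream sequences of 4 binding protein genes are shown because these genes had the largest absolute log2 fold changes between the groups. Each is the 250 bases before the RefSeq start site on GRCm38.p6, written 5′ to 3′ on the gene's own strand. Capitals mark 2 motifs, the core GCGTG of the hypoxia response element and the TATA box TATAAA, on either strand.
Igfbp3, chr11:7213924-7214173, minus strand: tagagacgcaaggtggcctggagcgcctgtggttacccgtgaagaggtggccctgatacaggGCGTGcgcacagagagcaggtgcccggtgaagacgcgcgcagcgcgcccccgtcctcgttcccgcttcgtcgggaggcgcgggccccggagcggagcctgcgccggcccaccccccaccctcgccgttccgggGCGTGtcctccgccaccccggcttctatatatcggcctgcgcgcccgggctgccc
Igfbp4, chr11:99040994-99041243, plus strand: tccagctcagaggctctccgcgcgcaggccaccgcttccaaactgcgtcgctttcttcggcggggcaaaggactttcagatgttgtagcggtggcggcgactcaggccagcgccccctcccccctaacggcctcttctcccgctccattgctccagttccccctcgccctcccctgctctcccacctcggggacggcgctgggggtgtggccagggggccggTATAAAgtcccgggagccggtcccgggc
Igfbp5, chr1:72874866-72875115, minus strand: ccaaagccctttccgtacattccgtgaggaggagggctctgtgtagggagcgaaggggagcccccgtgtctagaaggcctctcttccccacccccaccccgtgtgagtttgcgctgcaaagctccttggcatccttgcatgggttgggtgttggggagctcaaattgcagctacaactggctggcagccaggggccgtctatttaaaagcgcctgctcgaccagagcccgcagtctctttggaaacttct
Igfbp6, chr15:102143936-102144185, plus strand: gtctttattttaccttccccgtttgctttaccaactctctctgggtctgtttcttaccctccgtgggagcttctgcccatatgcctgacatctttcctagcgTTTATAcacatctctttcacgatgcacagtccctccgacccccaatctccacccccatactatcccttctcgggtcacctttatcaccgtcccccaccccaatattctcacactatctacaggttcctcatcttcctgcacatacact
Positions were counted back from the start site, so that the base just before it is -1. In *Igfbp3*, whose product is the main IGF carrier of blood, GCGTG began at -188 and at -55. *Igfbp4* held TATAAA at -28, and *Igfbp6* held it on the opposite strand at -148, where it reads TTTATA in the printed sequence. None of the letters searched lay in the *Igfbp5* window. The other core searched, ACGTG, and the GC box GGGCGG did not occur in these 4 windows. Among 32851 mouse promoters of RefSeq cut to the same length, 28.2% held GCGTG, 16.6% ACGTG, 32.7% GGGCGG and 12.4% TATAAA on either strand, with no overlap between the marked motifs in the windows shown. The bases before the start were 73.2% G or C in *Igfbp3*, 69.2% in *Igfbp4*, 58.8% in *Igfbp5* and 49.6% in *Igfbp6*.

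Total counts per library ranged from 24863611 to 31713704, and TMM factors from 0.960 to 1.03. *Slc16a7* had 481, 287 and 298 counts in the MCT2 CO libraries and 196, 162 and 133 counts in the MCT2 KO libraries. Levels are given as CPM, counts scaled to library size with edgeR's TMM factors for library composition. The log2 fold change of *Slc16a7* was -1.05 (SE 0.24), with an adjusted p of 0.370 by edgeR's quasi-likelihood test, and every MCT2 KO library lay below every MCT2 CO library. By DESeq2's Wald test, run over 18508 genes with at least 1 count, it was -1.04 (SE 0.25), with an adjusted p of 0.00908. MCT2 CO replicate 3 and MCT2 KO replicate 2 stood apart from the other libraries of their groups along the first and the second principal component, respectively, so results that rest on them are given with and without them. Of 12 macrophage markers, 11 passed the filter on low counts, led by *C1qa*, *C1qb* and *Lyz2*. Summed levels were 5694 to 7610 CPM in MCT2 CO and 10779, 6815 and 7503 CPM in MCT2 KO replicates 1 to 3, so the groups overlapped. All 11 had a positive log2 fold change (median 0.27), with a smallest adjusted p of 0.436 by edgeR's quasi-likelihood test. In 0 of them was every MCT2 KO library above every MCT2 CO library, beside 7.07% of all genes tested. The gene of CD11b itself, *Itgam*, had 1 count over the 6 libraries, and 99.1% of its exon bases lie within the span of *Gm49368*. The table gives each gene its whole span as length, so a 0 of a gene that lies within another gene's span was not read as absence. Of the members, *Igfbp7* had 7.03% of its exon bases within the span of another gene, *Polr2b* on the opposite strand, and the others had none.

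Of the 9 members, 8 passed the filter on low counts, which *Igfbp2* did not. *Igfbp3* was higher in MCT2 KO and *Igfbp6* was lower in MCT2 KO, with no overlap between the groups, and the other 6 members overlapped. By edgeR's quasi-likelihood test over 13485 genes, 0 of the 8 members were called, which took an adjusted p no higher than 0.05 and a log2 fold change of 0.58 or more in either direction, and the share of all genes called was 0%, with 2 members and 1264 genes at an unadjusted p under 0.05. Adjusted p ranged from 0.370 to 0.985 over the members, and the smallest over all genes was 0.144. By DESeq2's Wald test, the tool of the study's methods, run over 18508 genes with at least 1 count, 1 member was called, *Igfbp3*, beside 0.448% of all genes. Among all genes tested, 7.07% had every MCT2 KO library above every MCT2 CO library and 8.77% had every one below. As the members were picked with these values known, nothing is read from these counts.

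**Figure D1:**
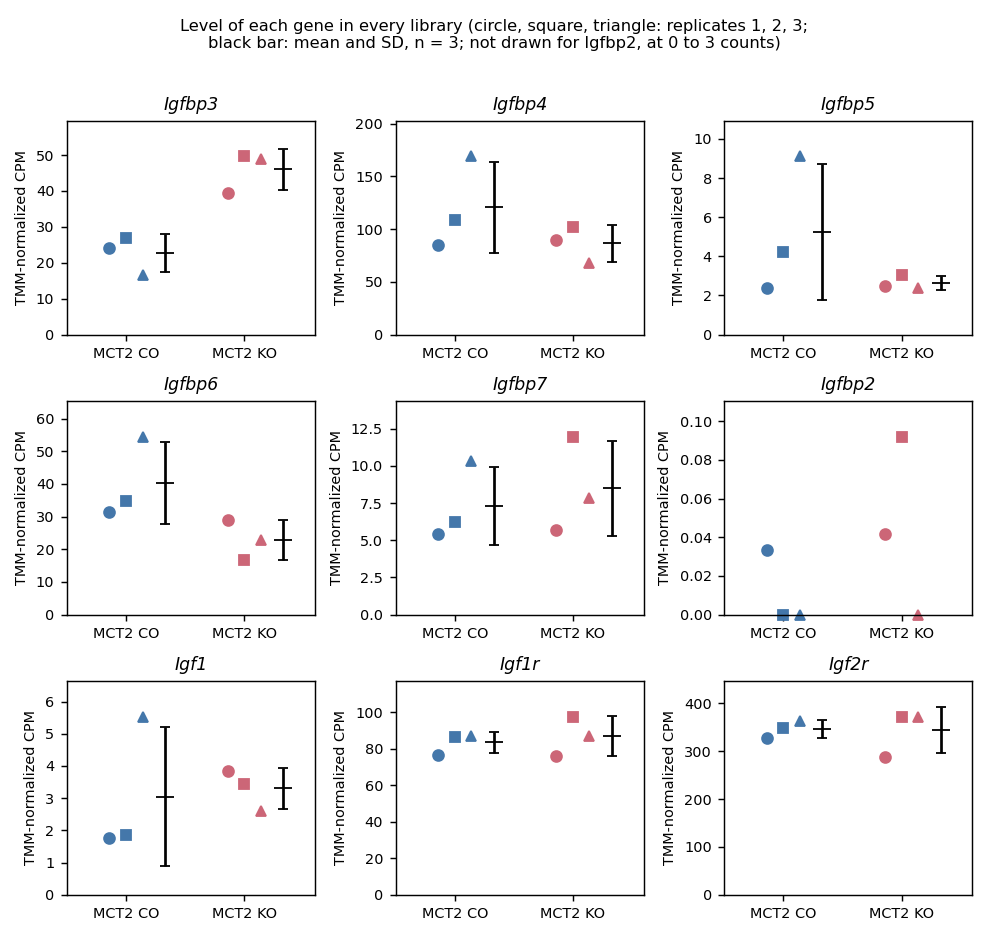
TMM-normalized CPM (vertical axis, from 0) of each of the 9 genes in the 3 MCT2 CO and 3 MCT2 KO libraries, with the mean and SD of each group except for *Igfbp2*. The 3 MCT2 KO points of *Igfbp3* lie at 39.5 to 49.6 CPM, above the 3 MCT2 CO points at 16.7 to 26.9 CPM, and those of *Igfbp6* lie below the MCT2 CO points.

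*Igfbp3* (ENSMUSG00000020427, GRCm38 chromosome 11, 7206086 to 7213923, minus strand, GENCODE M21) had 24.2, 26.9 and 16.7 CPM in MCT2 CO replicates 1 to 3 and 39.5, 49.6 and 48.8 CPM in MCT2 KO replicates 1 to 3. All MCT2 KO libraries were above all MCT2 CO libraries, and MCT2 CO replicate 3 was the lowest of the 6. The group means were 22.6 ± 5.29 CPM (SD, n = 3) and 46.0 ± 5.62 CPM (SD, n = 3), and the log2 fold change was 1.03 (SE 0.18), or 2.04-fold. This was place 10 of 13485 genes in order of p and place 78 in order of log2 fold change from the highest. The raw counts behind it were 443 to 725 in MCT2 CO and 942 to 1616 in MCT2 KO, so counting error was at most 4.75% of a value. Without MCT2 CO replicate 3 the log2 fold change was 0.85, and without MCT2 KO replicate 2 it was 0.97. Since bulk RNA was measured, fewer cells of a type and less RNA per cell cannot be told apart, here or in the results that follow.

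*Igfbp6* (ENSMUSG00000023046, chromosome 15, 102144362 to 102149511, plus strand) encodes the binding protein that prefers IGF2 over IGF1. It had 31.5, 34.7 and 54.5 CPM in MCT2 CO and 29.1, 16.8 and 22.9 CPM in MCT2 KO. MCT2 KO replicate 2 was the lowest and MCT2 CO replicate 3 the highest, while MCT2 KO replicate 1 was just under MCT2 CO replicate 1. The means were 40.2 ± 12.4 CPM (SD, n = 3) and 22.9 ± 6.13 CPM (SD, n = 3), with a log2 fold change of -0.82 (SE 0.25). It came to -0.54 without MCT2 CO replicate 3 and -0.63 without MCT2 KO replicate 2.

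*Igfbp5* (ENSMUSG00000026185, chromosome 1, 72857932 to 72874884, minus strand) encodes a binding protein that also binds extracellular matrix. It had 2.37, 4.23 and 9.11 CPM in MCT2 CO and 2.47, 3.04 and 2.37 CPM in MCT2 KO, from 59 to 242 counts. One library, MCT2 CO replicate 3, was far above the other 5, and MCT2 CO replicate 1 was the lowest of the 6, level with the lowest MCT2 KO library, so the groups overlapped. The log2 fold change was -0.99 (SE 0.44) with all libraries and -0.32 without MCT2 CO replicate 3. *Igfbp4* (ENSMUSG00000017493, chromosome 11, 99041244 to 99054392, plus strand), the substrate of pregnancy-associated plasma protein A, had 85.4, 108 and 169 CPM in MCT2 CO and 89.5, 102 and 67.6 CPM in MCT2 KO. Again MCT2 CO replicate 3 was the highest of the 6 libraries, and the groups overlapped. Its log2 fold change of -0.48 (SE 0.25) became -0.16 without that library.

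*Igfbp7* (ENSMUSG00000036256, chromosome 5, 77349240 to 77408041, minus strand), the low-affinity member, had 5.40, 6.23 and 10.3 CPM in MCT2 CO and 5.66, 12.0 and 7.87 CPM in MCT2 KO. Each group had 1 high library, MCT2 CO replicate 3 and MCT2 KO replicate 2, and the groups overlapped. The log2 fold change was 0.22 (SE 0.32), and it was 0.55 without MCT2 CO replicate 3 and -0.11 without MCT2 KO replicate 2. *Igfbp2* (ENSMUSG00000039323, chromosome 1, 72824503 to 72852474, plus strand) had 1, 0 and 0 counts in MCT2 CO and 1, 3 and 0 counts in MCT2 KO. No library exceeded 3 counts, a floor that corresponds to 0.0921 to 0.126 CPM in these libraries, so no fold is given and a difference was not detectable at this depth. Limits from 0 counts cover counting error only. *Igfbp2* and *Igfbp5* lie next to each other on chromosome 1, on opposite strands.

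*Igf1* (ENSMUSG00000020053, chromosome 10, 87858265 to 87937042, plus strand), the only ligand among the members, had 1.77, 1.85 and 5.53 CPM in MCT2 CO and 3.86, 3.44 and 2.61 CPM in MCT2 KO. The 3 MCT2 KO libraries lay between MCT2 CO replicate 2 and MCT2 CO replicate 3. It rested on 48 to 147 counts, and the counting error of the lowest was 14.4%. The log2 fold change was 0.12 (SE 0.44) with all libraries and 0.87 without MCT2 CO replicate 3, and without MCT2 CO replicate 1 or 2 it was -0.16 or -0.14.

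The receptor genes varied less than the binding protein genes. *Igf1r* (ENSMUSG00000005533, chromosome 7, 67952827 to 68233668, plus strand) had 76.7, 86.3 and 87.0 CPM in MCT2 CO and 76.1, 97.5 and 87.1 CPM in MCT2 KO. The highest library was 1.28-fold above the lowest, both of them MCT2 KO libraries. *Igf2r* (ENSMUSG00000023830, chromosome 17, 12682406 to 12769664, minus strand) had 327, 349 and 363 CPM in MCT2 CO and 288, 371 and 372 CPM in MCT2 KO. The MCT2 KO values enclosed all 3 MCT2 CO values. Log2 fold changes were 0.06 (SE 0.11) for *Igf1r* and -0.01 (SE 0.12) for *Igf2r*, beside a median of 0.00037 over all genes tested. Across the 6 libraries, the highest value exceeded the lowest by 2.22-fold to 3.85-fold for the 5 binding protein genes tested, and by 1.29-fold for *Igf2r*.

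**Figure D2:**
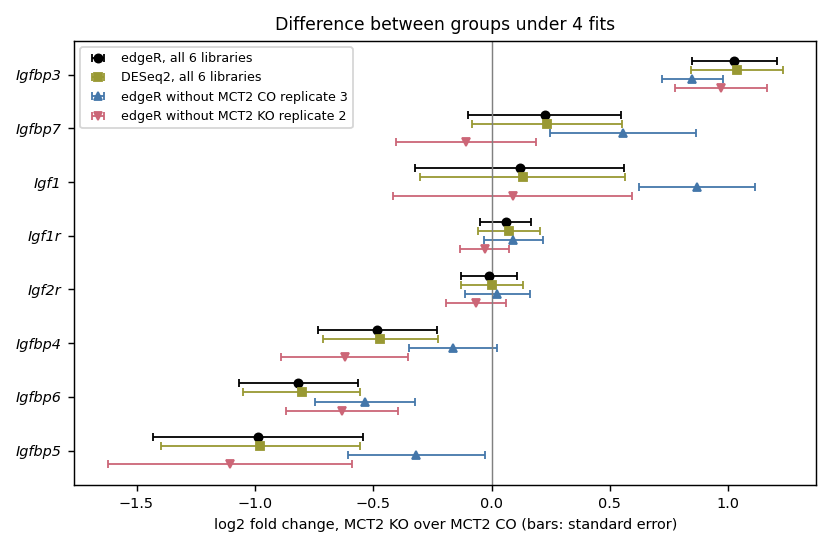
Log2 fold change of MCT2 KO over MCT2 CO (horizontal axis, bars are standard errors) of the 8 genes tested, by edgeR and DESeq2 on all 6 libraries and by edgeR without MCT2 CO replicate 3 or MCT2 KO replicate 2. *Igfbp3* stays between 0.85 and 1.04 in the 4 fits, whereas *Igfbp5* moves from -0.99 to -0.32 without MCT2 CO replicate 3.

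One control library set much of the spread of these genes. MCT2 CO replicate 3 exceeded the mean of the other MCT2 CO libraries 3.06-fold for *Igf1*, 2.76-fold for *Igfbp5*, 1.77-fold for *Igfbp7*, 1.74-fold for *Igfbp4* and 1.65-fold for *Igfbp6*. It was at 0.653 of their mean for *Igfbp3* and at 1.07 for both receptor genes, and the median of this ratio over all genes tested was 0.994. Summed fibroblast markers were also highest there, at 5534 CPM, against 3517 and 3903 CPM in the other MCT2 CO libraries and 3236 to 3706 CPM in MCT2 KO. All 12 fibroblast markers were tested, 9 were lower and 3 higher on average in MCT2 KO, and their median log2 fold change was -0.39. In 3 of them every MCT2 KO library was below every MCT2 CO library, beside 8.77% of all genes tested, and in 0 above. By edgeR 0 were called, with 4 at an unadjusted p under 0.05, and by DESeq2 3 were called, beside 0.448% of all genes. *Col3a1*, a fibrillar collagen gene, had 1489 ± 468 CPM (SD, n = 3) in MCT2 CO and 881 ± 118 CPM (SD, n = 3) in MCT2 KO, *Fn1*, the fibronectin gene, 1650 ± 329 and 1554 ± 225 CPM (SD, n = 3), and *Col1a2*, another collagen gene, 459 ± 90.7 and 390 ± 50.3 CPM (SD, n = 3). The part of these cells in the values of *Igfbp4*, *Igfbp5*, *Igfbp6* and *Igf1* was not tested.

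Other markers moved with the libraries as well. Summed endothelial markers ranged from 111 to 121 CPM in MCT2 CO and from 106 to 159 CPM in MCT2 KO, and pericyte and smooth muscle markers from 39.0 to 44.3 CPM and from 41.8 to 46.0 CPM. The endothelial log2 fold changes were positive for 7 of 11 markers (median 0.31), and the pericyte and smooth muscle ones for 8 of 9 (median 0.23), with 0 called by edgeR or DESeq2 in either list. Every MCT2 KO library was above every MCT2 CO library in 1 pericyte and smooth muscle marker and in 0 endothelial markers, beside 7.07% of all genes tested. Of 9 neutrophil markers, which CD11b beads would also hold, 7 were tested, 6 with a positive and 1 with a negative log2 fold change (median 1.53). In 5 of them, *S100a8*, *S100a9*, *Retnlg*, *Mmp8* and *Ltf*, every MCT2 KO library was above every MCT2 CO library, beside 7.07% of all genes tested. *Csf3r* and *Cxcr2*, also tested, overlapped, with log2 fold changes of 0.11 (SE 0.35) and -0.17 (SE 0.34). By edgeR 0 of the neutrophil markers were called, with 5 at an unadjusted p under 0.05. By DESeq2 4 were called, beside 0.448% of all genes. The summed neutrophil level, most of it *Csf3r*, overlapped at 82.9 to 103 CPM in MCT2 CO and 65.9 to 171 CPM in MCT2 KO. The 2 others did not pass the filter on low counts. They were *Ly6g*, with 1, 0 and 0 counts in MCT2 CO and 1, 4 and 2 in MCT2 KO, and *Camp*, with 0, 8 and 8 counts in MCT2 CO and 74, 28 and 9 in MCT2 KO. Of the 8 epithelial markers, 6, the keratin genes *Krt8* and *Krt18* among them, did not pass the filter on low counts either. The epithelial sum was 14.1 to 21.2 CPM in MCT2 CO and 19.0 to 33.7 CPM in MCT2 KO. The paper states for its tumors that TC1 cells cannot be firmly told from host stroma without lineage tracing or copy-number analysis. The part of TC1 cells in the values given here was not tested.

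Markers of lymphocytes and dendritic cells were at low levels apart from *Itgax*, which macrophages also express. All 6 B cell markers tested had a negative log2 fold change (median -1.07). In 3 of them every MCT2 KO library was below every MCT2 CO library, beside 8.77% of all genes tested. By edgeR 0 were called, with 3 at an unadjusted p under 0.05, and by DESeq2 1, *Cd79a*, beside 0.448% of all genes. The B cell sum was 16.2 to 19.3 CPM in MCT2 CO and 4.39 to 14.4 CPM in MCT2 KO. Of 7 NK cell markers, 5 were negative (median -0.51). *Ncr1*, *Klrb1c*, *Klra8* and *Gzma* had every MCT2 KO library below every MCT2 CO library, beside 8.77% of all genes tested. By edgeR 0 NK cell markers were called, with 3 at an unadjusted p under 0.05, and by DESeq2 1, *Gzma*, beside 0.448% of all genes. The NK cell sum, 25.8 to 42.1 CPM in MCT2 CO and 26.5 to 55.5 CPM in MCT2 KO, went the other way on average, since it is mostly *Prf1* and *Nkg7*. Among 8 dendritic cell markers, 5 were negative (median -0.17), *Zbtb46* with every MCT2 KO library below every MCT2 CO library, beside 8.77% of all genes tested. By edgeR, with 1 at an unadjusted p under 0.05, or by DESeq2, 0 of the dendritic cell markers were called. Their sum, nearly all *Itgax*, was 355 to 732 CPM in MCT2 CO and 463 to 974 CPM in MCT2 KO. T cell markers split into 5 positive and 4 negative log2 fold changes. In 1 of them, *Tcf7*, every MCT2 KO library was below every MCT2 CO library, beside 8.77% of all genes tested. Of the T cell markers 0 were called, and their sums were 62.2 to 84.7 CPM in MCT2 CO and 31.6 to 107 CPM in MCT2 KO. The most abundant markers were *Pecam1*, *Kdr* and *Cdh5* of endothelium, *Notch3*, *Cspg4* and *Tagln* of pericytes and smooth muscle, *Csf3r*, *S100a9* and *Mmp8* of neutrophils, *Cdh1*, *Epcam* and *Cldn4* of epithelium, *Cd79b*, *Pax5* and *Cd79a* of B cells, *Itgax*, *Ccr7* and *Zbtb46* of dendritic cells, *Tcf7*, *Cd4* and *Cd8a* of T cells and *Prf1*, *Nkg7* and *Gzma* of NK cells. The part of these cells in the values of *Igfbp3* and *Igfbp7* was not tested.

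**Figure D3:**
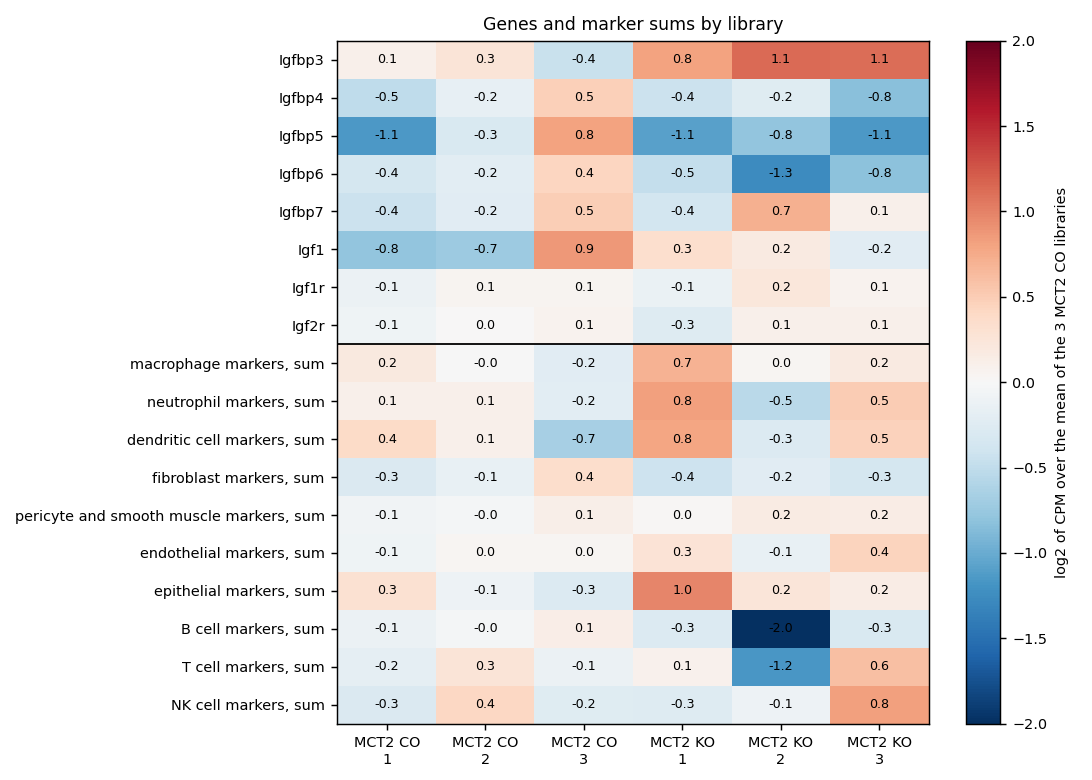
Log2 ratio of each library (columns) to the mean of the 3 MCT2 CO libraries, for the 8 genes tested (upper rows) and for summed CPM of 10 lists of cell type markers (lower rows), on a color scale from -2 to 2. In MCT2 CO replicate 3, *Igf1*, *Igfbp4* to *Igfbp7* and the fibroblast sum are above both other MCT2 CO libraries, and *Igfbp3* is below them.

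Levels of different genes were compared per kilobase of exon, as CPM divided by the length of all annotated exons of the gene. *Igf2r* came first at 37.1 ± 3.50 CPM per kilobase (SD over the 6 libraries), followed by *Igfbp6* at 28.4 ± 11.6, *Igfbp4* at 23.5 ± 7.93, *Igfbp3* at 10.95 ± 4.38, *Igfbp7* at 6.54 ± 2.23, *Igf1r* at 5.07 ± 0.472, *Igfbp5* at 0.655 ± 0.438 and *Igf1* at 0.321 ± 0.144 CPM per kilobase. Neighbours in this order were compared within libraries by exact two-sided sign-flip permutation tests, 7 pairs in all, with Benjamini-Hochberg adjustment. The order was itself taken from the means of these 6 libraries, with both groups pooled. The level of *Igf1r* was 8.85-fold that of *Igfbp5*, and *Igfbp5* was 1.93-fold above *Igf1*, both in 6 of 6 libraries (exact permutation p = 0.03125, the smallest that 6 libraries allow, adjusted p = 0.109). The other 5 pairs had the same direction in 5 of 6 libraries, with folds from 1.18 for *Igfbp6* over *Igfbp4* to 2.22 for *Igfbp4* over *Igfbp3*. These folds also pool the groups and need not describe either one. Mean levels of *Igfbp4* and *Igfbp3* were 27.4 and 7.21 CPM per kilobase in MCT2 CO, and 19.6 and 14.7 in MCT2 KO. An adjusted p of 0.05 or less would need 5 of the 7 pairs at that smallest p, so the adjusted values cannot separate single pairs. By their ranges, *Igf1r* at 4.53 to 5.81 and *Igfbp5* at 0.394 to 1.52 CPM per kilobase did not overlap over the 6 libraries, whereas the ranges of the other 6 neighbouring pairs did. The ligand gene *Igf1* was thus last in the mean order, and *Igf2r* first, in each of the 6 sets that leave out 1 library. The first place depended on the length used. By whole gene span in place of exon length, *Igfbp4* came first and *Igf2r* took place 4, with *Igf1* still last. Whether reads were counted over exons or whole spans is not given in the sources used here.

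**Figure D4:**
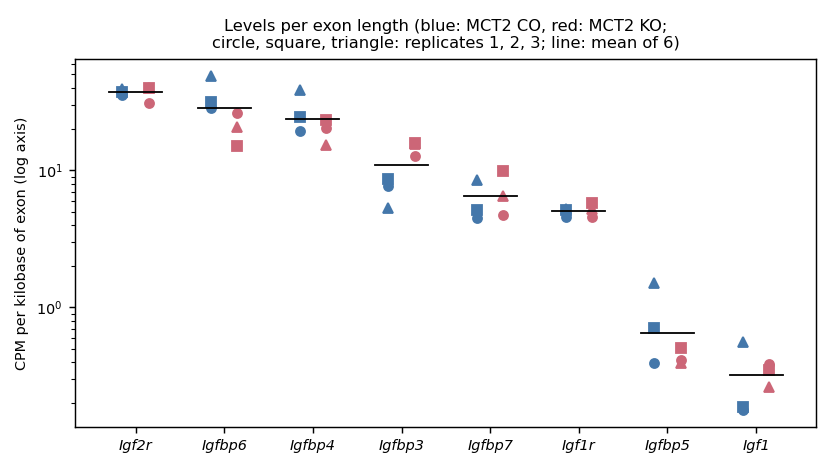
CPM per kilobase of exon on a log axis for the 8 genes tested in each MCT2 CO library (blue) and MCT2 KO library (red), with the mean of the 6 as a line. Means fall from 37.1 for *Igf2r* to 0.321 for *Igf1*, and the points of most neighbours overlap.

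The make-up of binding protein transcripts was described as each gene's share of the summed level per kilobase of the 5 binding protein genes tested. *Igfbp3* made up 12.8%, 12.2% and 5.19% in MCT2 CO and 19.7%, 24.5% and 26.7% in MCT2 KO. Every MCT2 KO share of it was above every MCT2 CO share. *Igfbp6* made up 47.0%, 44.5% and 47.7% in MCT2 CO and 40.8%, 23.4% and 35.2% in MCT2 KO. Here every MCT2 KO share was below, and *Igfbp6* was the largest share in each library but MCT2 KO replicate 2, where *Igfbp4* led with 35.9%. *Igfbp4* shares overlapped, at 32.1% to 37.3% in MCT2 CO and 26.2% to 35.9% in MCT2 KO, and *Igfbp5* did not exceed 1.48% in any library.

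Ratios of raw counts within a library do not depend on how libraries are scaled. There were 0.768, 0.774 and 0.306 *Igfbp3* counts per *Igfbp6* count in MCT2 CO and 1.36, 2.95 and 2.14 in MCT2 KO. Thus *Igfbp6* had more counts in each MCT2 CO library and *Igfbp3* in each MCT2 KO library. Raw counts also depend on gene length, with 3130 exon bases in *Igfbp3* and 1112 in *Igfbp6*. Per kilobase of exon, *Igfbp6* stayed above *Igfbp3* in each MCT2 CO library. It also did so in MCT2 KO replicates 1 (26.1 against 12.6) and 3 (20.6 against 15.6). Only in MCT2 KO replicate 2 was it lower (15.1 against 15.8). *Igfbp3* counts per *Igfbp4* count were 0.283, 0.248 and 0.0986 in MCT2 CO and 0.441, 0.484 and 0.722 in MCT2 KO, also without overlap between the groups. By contrast, *Igfbp4* counts per *Igfbp6* count were 2.71 to 3.12 in 5 of the 6 libraries and 6.10 in MCT2 KO replicate 2. These ratios come from the values that chose the members and were not tested.

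**Figure D5:**
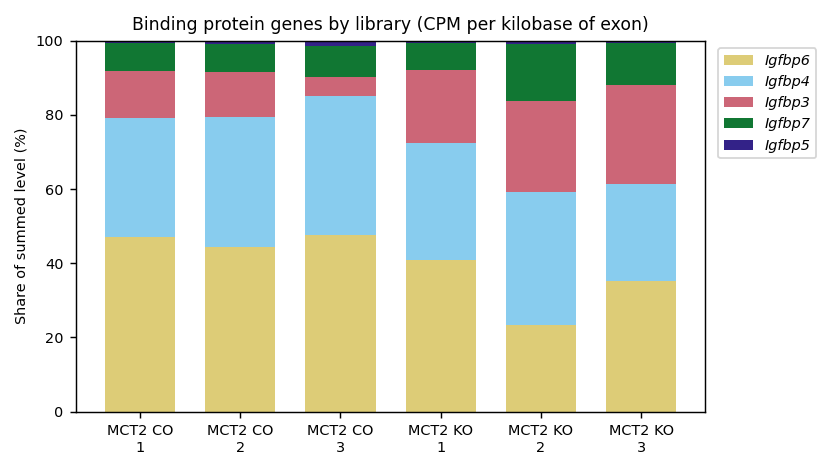
Share (%) of 5 binding protein genes in their summed CPM per kilobase of exon, stacked for each library. The *Igfbp3* segment is 5.19% to 12.8% in MCT2 CO and 19.7% to 26.7% in MCT2 KO, and the *Igfbp6* segment is 44.5% to 47.7% and 23.4% to 40.8%.

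Correlations of log2 CPM over the 6 libraries are given as a description, since these libraries share their group difference and MCT2 CO replicate 3. *Igfbp4* and *Igfbp5* had a Pearson r of 0.943, *Igf1r* and *Igfbp7* one of 0.882, and *Igfbp3* and *Igfbp6* one of -0.930. The genes most like *Igfbp3* were *Tagln2*, encoding an actin-binding protein, with r = 0.998 and *Ccs*, the copper chaperone of superoxide dismutase, with r = 0.995. *Slc14a1* and *Plce1* were most like *Igfbp4* (r = 0.992 for each), *Nabp1* and *Mapk8ip1* most like *Igfbp5* (0.999 and 0.996), and *Rtn4rl1* and *Macrod1* most like *Igfbp6* (0.995 and 0.994). For *Igfbp7* they were *Dio2* and *Nup93* (0.998 and 0.992), for *Igf1* *Tsr3* and *Reps2* (0.995 and 0.983), for *Igf1r* *Tpm2* and *Amotl1* (0.997 for each) and for *Igf2r* *Prmt2* and *Sdcbp2* (0.994 and 0.986). With 6 libraries and 13485 genes such values were common: 258 genes had an r over 0.9 with *Igfbp3*, and 54 to 428 genes with each of the other 7 members tested.

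The other genes of the pathway were read from 4 lists with 75 genes in all. Of these, 69 were tested, 0 were called by edgeR or DESeq2 and 1 had an unadjusted p under 0.05 in edgeR. By sign, 42 log2 fold changes were positive and 27 negative, with a median of 0.024, beside 6753 positive and 6732 negative of all genes tested. In 1 gene every MCT2 KO library was above every MCT2 CO library, and in 2 genes below, beside 7.07% and 8.77% of all genes tested.

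Among 17 further genes of the IGF system, 11 were tested and 0 were called. *Igf2*, *Insrr* and *Htra1* had 0 counts in every library, and 99.9%, 100% and 100% of their exon bases lie within the spans of *Gm49394*, *Pear1* and *Fgfr2*, so the second ligand of *Igf1r* could not be judged. *Pappa2*, a protease of binding proteins, had 1.17, 1.27 and 1.62 CPM in MCT2 CO and 0.922, 6.32 and 1.69 CPM in MCT2 KO, its log2 fold change of 1.16 (SE 0.64) resting on MCT2 KO replicate 2. *Pappa*, whose product cuts the *Igfbp4* product, had 5.32 ± 0.716 and 5.30 ± 1.05 CPM (SD, n = 3). *Stc1*, encoding an inhibitor of that protease, had 136 ± 9.59 and 146 ± 12.9 CPM (SD, n = 3), and *Stc2*, encoding another, a log2 fold change of -0.60 (SE 0.35). *Lrp1*, an endocytic receptor that can bind IGFBP3, had 983, 1090 and 1125 CPM in MCT2 CO and 1220, 1196 and 1187 CPM in MCT2 KO. Its MCT2 KO libraries were all above its MCT2 CO libraries, with a log2 fold change of 0.17 (SE 0.10) and an adjusted p of 0.621 by edgeR's quasi-likelihood test. *Insr*, the insulin receptor gene, had 70.9 ± 4.14 and 77.1 ± 6.35 CPM (SD, n = 3).

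In the growth hormone axis, which drives *Igf1* in liver, 7 of 7 genes were tested, 0 were called and the median log2 fold change was 0.016. *Socs1*, a feedback inhibitor of JAK kinases, had 7.64, 6.23 and 6.81 CPM in MCT2 CO and 4.49, 2.27 and 4.22 CPM in MCT2 KO. The groups did not overlap, with a log2 fold change of -0.92 (SE 0.26) and an adjusted p of 0.426 by edgeR's quasi-likelihood test. *Socs2*, the inhibitor tied most closely to growth hormone, had a log2 fold change of -0.44 (SE 0.31), and *Socs3* one of 0.28 (SE 0.29). *Ghr*, the growth hormone receptor gene, had 136 ± 26.7 and 151 ± 16.5 CPM (SD, n = 3).

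All 40 genes of signal transduction below *Igf1r* were tested and 0 were called, with 19 positive and 21 negative log2 fold changes between -0.39 and 0.21. *Irs2*, a docking protein of the receptor, was at -0.39 (SE 0.19), and *Mapk3*, encoding the kinase ERK1, at 0.21 (SE 0.09). *Foxo4*, a transcription factor held out of the nucleus by AKT, was at -0.17 (SE 0.11), with every MCT2 KO library below every MCT2 CO library. Of 11 genes for mannose 6-phosphate tagging and sorting, the other task of *Igf2r*, 11 were tested and 0 were called. By sign, 10 log2 fold changes were positive and 1 negative, with a median of 0.095. The adaptor genes *Gga2* and *Gga3* were at 0.32 (SE 0.14) and 0.22 (SE 0.14), and *M6pr*, the smaller mannose 6-phosphate receptor gene, at 0.18 (SE 0.13).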

How the data were processed

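RNA was from CD11b+ cells, taken with magnetic beads after digestion of the tumors with collagenase, in 3 MCT2 CO and 3 MCT2 KO samples grouped by their titles. The authors aligned reads with STAR 2.7.11b to GRCm38, counted them with featureCounts 2.1.1, and deposited raw counts per gene, without normalization or pooling. The annotation, feature type and strand setting are not given in the sources used here. The table's lengths equal whole gene spans. Of its 25701 genes, 25594 are in GENCODE M21, 98.1% of them with an equal span length and 2.20% with equal start and end, so positions were taken from GENCODE M21 by Ensembl identifier.

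Genes were kept by edgeR's filterByExpr (minimum count 10, minimum total count 15), normalized by TMM and compared by the quasi-likelihood test without covariates (edgeR 4.0.16, limma 3.58.1, R 4.3.3), with Benjamini-Hochberg adjustment over 13485 genes. The main test differs from the study's methods, which used DESeq2 with the same thresholds; DESeq2 1.42.0 was run as an alternative. Neighbouring levels were compared with scipy 1.17.1 in Python 3.11.15. Correlations used log2 CPM with a prior count of 2. On simulated counts of 13387 genes, 200 of them changed by 2 on the log2 scale, 100% were recovered and 4.31% of calls were false. The changed genes were drawn only from those above a minimum mean CPM, and their change was larger than that of any member. The simulation therefore does not measure how often changes of the members' size would be called. No replicate pair was close enough to be a single library (chi-square per degree of freedom at least 15.7).

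The members and lists were chosen with earlier results of these data known. All members were named, together with the called genes of each pathway list or else the 3 with the smallest p, the 3 most abundant markers of each list and the 2 genes most correlated with each member; *Pappa*, *Stc1*, *Insr*, *Ghr* and further markers were added after their values were seen. Protein sequences were not used here. The alternatives were other tools, scalings, filters, gene lengths, a replicate block and each library left out in turn; shares by whole gene span and the counts of groups without overlap after leaving out a library were chosen after seeing the data.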

Additional observations from a re-analysis of the deposited data

How the results depend on the processing

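Of 154 alternative values for the counts of calls and the log2 fold changes, 139 kept their direction and their side of the threshold, 8 held a call where the value reported here held none, and 7 turned their sign. The count of genes called was 0 by edgeR, 79 by DESeq2 on the same genes, 83 by DESeq2 on the 18508 genes counted at least once, 2 without a filter on low counts, and 0 to 2 with a library left out, the 2 without MCT2 KO replicate 2. Of the members, 1 was called by DESeq2 on either set of genes, and 0 by every other alternative, as were 0 of the other pathway genes by all of them. *Igfbp3* stayed between 0.85 and 1.17 on the log2 scale, *Igfbp6* between -1.02 and -0.54, *Igfbp5* between -1.34 and -0.32 and *Igfbp4* between -0.68 and -0.16, each with 1 sign in all 14 alternatives. The sign turned for *Igf1* (-0.16 to 0.87 with a library left out), *Igf1r* (-0.029 to 0.157), *Igf2r* (-0.067 to 0.111, and 0.0016 by DESeq2 on all genes) and *Igfbp7* (-0.108 to 0.555). The cause was not tested. Members with every MCT2 KO library above every MCT2 CO library numbered 2 without MCT2 CO replicate 3 (*Igfbp3* and *Igf1*) and 3 without MCT2 KO replicate 1, and those below numbered 3 without MCT2 CO replicate 1. These counts used fewer libraries, and over all genes tested the shares were then 9.98% to 15.4% above and 11.6% to 16.3% below. By whole gene span in place of exon length, the order of levels was *Igfbp4*, *Igfbp6*, *Igfbp3*, *Igf2r*, *Igf1r*, *Igfbp5*, *Igfbp7* and *Igf1*, and the *Igfbp3* share differed by 19.0 percentage points between groups instead of 13.6. With the longest transcript, *Igf1r* and *Igfbp7* changed places. Neighbouring pairs with 1 direction in every library numbered 2, and 4 without MCT2 CO replicate 3. They numbered 3 without MCT2 CO replicate 1, MCT2 KO replicate 2 or MCT2 KO replicate 3, and 2 without either of the remaining libraries. Leaving out a library cannot lower this count.

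By the replicate numbers of the titles no pairing was seen. Deviations of same-numbered libraries correlated at 0.216, -0.247 and -0.161, and not every library correlated best with its own number. The library names number the samples otherwise, as C1, C2 and C3 in MCT2 CO and T2, T3 and T5 in MCT2 KO. By these names, C2 and T2 correlated at 0.0577 and C3 and T3 at 0.292, the highest value of all pairs. A pairing by library name was not tested further. With a replicate block, 0 genes, 0 members and 0 pathway genes were called, and *Igfbp3* was at 1.04, *Igfbp6* at -0.81, *Igfbp5* at -0.80, *Igfbp4* at -0.44, *Igf1* at 0.30 and *Igfbp7* at 0.21. Depth limits *Igfbp2*, at 0 to 3 counts, and the counting error of *Igf1* and *Igfbp5*.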
